A study of Mus musculus with 4 samples.

Results

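Fully methylated windows were the 1-kb stretches of the mouse autosomes in which nearly every sequenced CpG was read as methylated when all libraries were pooled. They numbered 60002 of 293737 tested windows, or 20.4%. A window was tested when at least 5 cytosine positions had 5 or more reads in each of the 4 libraries, and it was a member when methylated reads made up at least 95% of the reads summed over those libraries. The level itself chose the members, so levels of the members are a description and carry no test.

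The study measured DNA methylation by whole-genome bisulfite sequencing in CD4+ T cells from the spleen of NOD mice, which are prone to autoimmune diabetes. Mice were treated weekly for 3 weeks from 6 weeks of age and cells were taken at 10 weeks. Effector T cells (Teff) were sorted as CD4+CD25- and regulatory T cells (Treg) as CD4+CD25hi. The groups were Teff and Treg of mice given OX40L and Jagged-1 proteins (OX40L-JAG1 Teff, OX40L-JAG1 Treg) and Teff and Treg of mice given PBS (PBS Teff, PBS Treg), with 1 library each. OX40L is the ligand of a costimulatory receptor of T cells and Jagged-1 a ligand of Notch receptors. No spread between libraries of one group can be measured, intervals below cover counting error only, and how many animals stand behind a library was not given in the sources used here. In bulk DNA, less methylation in every cell and loss of methylation in some of the cells cannot be told apart. The sort labels were checked at 3 Treg marker genes. The 1 tested window of Foxp3, the Treg master regulator, stood at 46.5% in OX40L-JAG1 Treg and 41.0% in PBS Treg, while OX40L-JAG1 Teff had 94.3% and PBS Teff 94.6%. Levels were lower in Treg than in Teff under both treatments in 38 of 41 tested windows of Ikzf2, which encodes Helios, and in 7 of 9 of Il2ra, which encodes CD25.

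In mammals the maintenance enzyme DNMT1 copies CpG methylation onto the new strand at each cell division, and DNMT3A and DNMT3B add it afresh. Active transcription brings DNMT3 enzymes to gene bodies through a histone mark laid down by the elongating polymerase complex, so that bodies of expressed genes are densely methylated while their CpG-rich starts stay free of methylation. Late-replicating, gene-poor DNA keeps methylation less completely in dividing cells.

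Starts with and without methylation are visible in single promoters, and the sequences below show both kinds. Starts are set beside gene bodies only for Rsrc1 and Exoc2. In each, from 250 bases before the annotated start to 50 after it, capitals mark CpG sites. The sequences and coordinates come from RefSeq, build GRCm38.p6. The starts of Piwil4, Fndc9 and Tktl2 lie in fully methylated windows. They were picked, after their values were seen, from the starts in members with the most positions read in all libraries. Pxt1, with 8 such positions, ranked between Fndc9 and Tktl2 and stood at 94.5% over the stretch. The starts of Rsrc1 and Exoc2 were nearly free of methylation, in genes whose bodies hold many fully methylated windows. Coding genes were ranked by members if 10 or more windows were tested and at least 50% were members. Among those with a start read at 5 or more positions, Rsrc1 came first, and Exoc2 was picked afterwards for its many positions.
Piwil4, chr9:14740623-14740922, minus strand: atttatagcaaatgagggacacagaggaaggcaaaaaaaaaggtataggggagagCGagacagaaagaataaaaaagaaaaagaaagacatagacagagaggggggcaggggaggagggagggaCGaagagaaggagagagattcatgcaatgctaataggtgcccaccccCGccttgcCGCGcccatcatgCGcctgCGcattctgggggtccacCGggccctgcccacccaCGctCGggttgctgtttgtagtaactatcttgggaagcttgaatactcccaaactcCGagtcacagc
Fndc9, chr11:46235307-46235606, plus strand: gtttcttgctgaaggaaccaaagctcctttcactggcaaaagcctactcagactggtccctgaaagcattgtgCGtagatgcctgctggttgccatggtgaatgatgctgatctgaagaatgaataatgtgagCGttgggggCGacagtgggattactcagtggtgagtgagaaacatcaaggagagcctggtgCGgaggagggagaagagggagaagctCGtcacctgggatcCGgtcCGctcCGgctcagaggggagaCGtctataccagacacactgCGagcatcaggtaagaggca
Tktl2, chr8:66511490-66511789, plus strand: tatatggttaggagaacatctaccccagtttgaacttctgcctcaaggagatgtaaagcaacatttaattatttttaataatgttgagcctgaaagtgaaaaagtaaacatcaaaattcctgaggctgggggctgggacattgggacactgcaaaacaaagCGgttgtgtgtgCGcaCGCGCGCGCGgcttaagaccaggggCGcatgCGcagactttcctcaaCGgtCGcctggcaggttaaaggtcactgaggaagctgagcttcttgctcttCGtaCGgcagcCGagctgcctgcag
Rsrc1, chr3:66985412-66985711, plus strand: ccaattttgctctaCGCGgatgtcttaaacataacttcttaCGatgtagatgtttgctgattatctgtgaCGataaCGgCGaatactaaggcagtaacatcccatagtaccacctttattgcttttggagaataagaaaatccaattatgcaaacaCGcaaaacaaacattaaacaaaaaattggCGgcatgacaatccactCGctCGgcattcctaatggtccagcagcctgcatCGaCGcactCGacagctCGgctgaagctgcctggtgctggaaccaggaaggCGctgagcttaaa
Exoc2, chr13:30973998-30974297, minus strand: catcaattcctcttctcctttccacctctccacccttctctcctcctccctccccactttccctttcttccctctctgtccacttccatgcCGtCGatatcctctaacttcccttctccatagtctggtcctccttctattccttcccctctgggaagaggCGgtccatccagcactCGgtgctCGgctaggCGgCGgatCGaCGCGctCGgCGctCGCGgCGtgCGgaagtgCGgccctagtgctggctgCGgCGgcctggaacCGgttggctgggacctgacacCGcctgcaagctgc

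Piwil4, also called MIWI2, acts in the piRNA pathway that silences transposons in the male germ line. Its promoter stretch holds 11 CpG sites. A site can give a position on each strand, so the positions given here and below do not count sites. Over the 11 positions read in all libraries, 94.4% of 250 reads were methylated in OX40L-JAG1 Teff and 97.5% of 316 in PBS Teff, 96.4% of 140 in OX40L-JAG1 Treg and 95.95% of 222 in PBS Treg. Tktl2, a transketolase-like gene, had 14 CpG sites and was methylated in every read at 7 positions, from 45 reads in OX40L-JAG1 Teff and 56 in PBS Teff, and from 69 in OX40L-JAG1 Treg and 70 in PBS Treg. Fndc9, with 10 CpG sites, stood at 98.7% in OX40L-JAG1 Teff and 98.15% in PBS Teff, and at 97.75% in OX40L-JAG1 Treg and 97.4% in PBS Treg. All 4 libraries lay above 94% at these 3 starts. Rsrc1, a gene of a serine- and arginine-rich protein, had a start nearly free of methylation. Its start stood at 2.62% over 6 positions, while 42 of the 75 tested windows of the gene were members. Exoc2, which encodes a subunit of the exocyst, stood at 0.867% over 20 positions at its start and had 13 members among 22 tested windows.

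Such methylated starts were few among those that could be read. Of 20085 coding gene starts, with none given for chromosome 18, 18059 lay in no tested window. Of the others, 118 starts of 113 genes lay in a member and 1908 in another tested window. The promoter stretch held a median of 5 CpG sites at starts in members and 14 at starts in other windows. Starts with 15 or more CpG sites made up 12.7% of the first kind and 49.6% of the second. Where at least 5 positions of the stretch itself were read in all libraries, 14 starts in members had a median level of 96.95% and 343 starts in other windows one of 1.76%. Of those 14, 11 stood at 95% or more. Among coding genes with 10 or more tested windows of which at least 50% were members, 36 had a start read at 5 or more positions, and 32 of these starts lay under 20%. The highest stood at 98.1% and belongs to Dgkh, which encodes a diacylglycerol kinase.

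Levels pooled over all members lay above 95% in each library and were lowest in the OX40L-JAG1 libraries. Pooled over all members, 95.98% of reads were methylated in OX40L-JAG1 Teff and 97.1% in PBS Teff. OX40L-JAG1 Treg had 96.2% and PBS Treg 96.9%. Other tested windows stood at 80.005% in OX40L-JAG1 Teff and 83.1% in PBS Teff, and at 80.5% in OX40L-JAG1 Treg and 82.9% in PBS Treg. Not every member reached 95% in each library. The share of members at 95% or more was 70.3% in OX40L-JAG1 Teff and 89.4% in PBS Teff. This share was 72.5% in OX40L-JAG1 Treg and 85.2% in PBS Treg. The median member stood at 96.6% over the 4 libraries, 7761 members at 98% or more, and 127 at 100%. A member held a median of 343 reads, against 364 in other windows, and 6 kept positions, as did other windows. With 343 reads, a window at 95% has a 95% Wilson interval from 92.15% to 96.85%, so membership close to the threshold is not firm for a single window. The 2013 windows less than 0.1 point above the threshold stood at 94.0% in OX40L-JAG1 Teff, 95.8% in PBS Teff, 94.4% in OX40L-JAG1 Treg and 95.7% in PBS Treg. The 1715 windows less than 0.1 point below it stood at 93.9%, 95.8%, 94.1% and 95.7% in the same order.

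**Figure D1:**
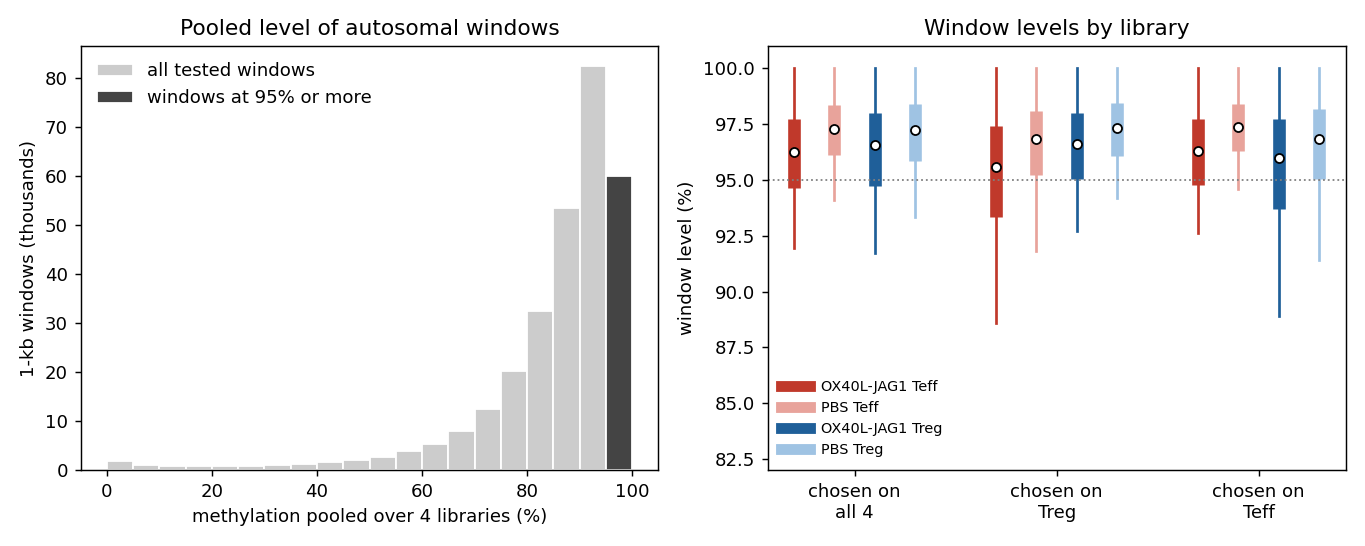
Left, number of tested autosomal windows by pooled level, with the members in dark grey; right, level of windows in each library as median (point), 25th to 75th percentile (thick bar) and 5th to 95th percentile (line) for windows chosen on all 4 libraries, on both Treg libraries or on both Teff libraries. In the windows chosen on Treg, the median is 95.6% in OX40L-JAG1 Teff and 96.8% in PBS Teff; the dotted line marks 95%.

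The rule leaves little room for single CpG positions free of methylation, so values at the positions it used are a description. Of 419502 positions that the rule used, 24.7% were methylated in every read of all 4 libraries, and 18 lay below 50% in all 4. Positions under 80% made up 2.59% in OX40L-JAG1 Teff and 1.01% in PBS Teff, and 2.55% in OX40L-JAG1 Treg and 1.42% in PBS Treg. The median position had 12 reads in OX40L-JAG1 Teff, 15 in PBS Teff, 9 in OX40L-JAG1 Treg and 11 in PBS Treg. These shares depend on the reads per position, and the part of depth in them was not tested. Members also hold positions that missed the read minimum in some library and so took no part in the choice. At 168458 such positions listed in both Teff libraries, 92.0% of reads were methylated in OX40L-JAG1 Teff and 93.9% in PBS Teff. At 41666 listed in both Treg libraries, the levels were 92.4% in OX40L-JAG1 Treg and 93.7% in PBS Treg. The same kind of position over all tested windows stood at 81.5% in OX40L-JAG1 Teff and 84.4% in PBS Teff, and at 81.4% in OX40L-JAG1 Treg and 83.4% in PBS Treg. These positions often lie on the same DNA molecules as the ones used.

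Members lay mostly in genes. Of the members, 68.4% overlapped a gene of any type (Wilson interval 68.0% to 68.8%), against 45.9% of other windows. Coding genes alone held 61.4% of members and 36.5% of other windows. Windows in noncoding genes only did not share this: they made up 7.01% of members and 9.37% of other windows. Counted the other way, 30.1% of windows in coding genes were members, 16.1% of those in noncoding genes only, and 13.0% of those outside genes. Members overlapped genes more often than other windows on 19 of 19 autosomes, by 14.9 to 28.0 percentage points. Neighbouring windows are not independent, so these intervals are narrower than the true error.

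Around transcription starts the windows were seldom fully methylated, and along genes their share rose. Of windows centred within 1 kb of a coding start, 6.86% were members, and their median pooled level was 54.2%. The share was 15.2% at 1 to 2 kb, 24.9% at 2 to 5 kb, and 28.8% at 10 to 50 kb. Beyond 200 kb it was 11.8%. In 10549 coding genes of at least 10 kb, 19.2% of windows in the first of 10 equal parts of the gene were members, 29.1% in the second and 35.4% in the eighth. The last had 33.4%, and the 5 kb after the gene 28.6%. These values lack chromosome 18.

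Gene-poor DNA held few members. With no coding gene within 500 kb, 7.29% of windows were members, and with 15 to 24 coding genes 28.7% were. In the densest regions, with 25 or more, the share was 24.1%. Being in a gene and lying near genes went together, so both were read side by side. In windows inside a gene the share was 9.91% with no coding gene within 500 kb and 35.6% with 15 to 24. Outside genes it was 7.03% and 16.3% in these same settings. Windows in genes therefore had the higher share at every density, and the gap was smallest in gene deserts. The autosomes ranged from 16.9% on chromosome 8 to 23.7% on chromosome 11.

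Windows with few CpG sites were less often members, and so were the richest ones. Members held a mean of 10.9 listed CpG sites and other windows 9.65. The share of members was 11.8% among windows with fewer than 6 listed CpG sites, 28.1% among those with 15 to 19, and 17.6% among those with 30 or more, where the median pooled level of all windows was 29.5%. CpG-rich windows lay in genes more often, 61.0% at 15 to 19 sites and 37.5% below 6, and the part of one in the other was not tested. The deposited lists hold only CpG sites that reached 5 reads in some library, so sites in poorly covered windows are undercounted.

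**Figure D2:**
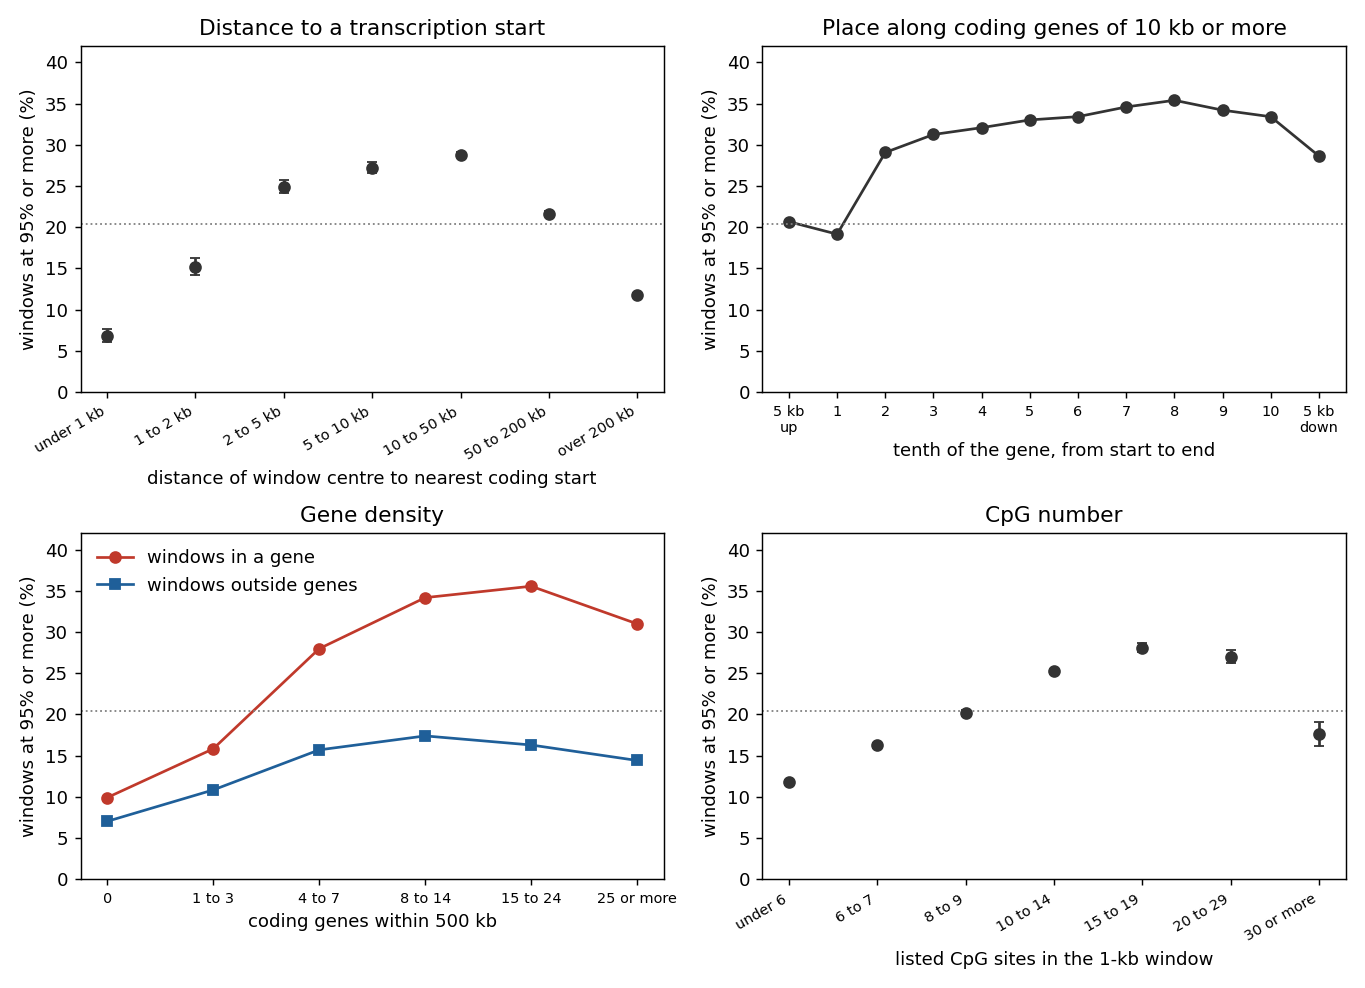
Share of tested windows that are fully methylated. Panels show distance to the nearest coding start, place along coding genes, number of coding genes within 500 kb, and listed CpG sites. In the panels of distance and listed CpG sites, bars are 95% Wilson intervals, and the other panels show no intervals. The dotted line is the share over all tested windows, 20.4%. The share is lowest near starts (6.86%) and far from them (11.8%), and higher in genes than outside them at every gene density.

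Most members stood alone among the tested windows. They formed 54742 runs of adjacent members, of which 50194 were single windows, and 9808 members lay in runs of 2 or more. Few members had a tested neighbour. When a member was followed by a tested window, that window was also a member in 44.0% of 11967 cases, against 14.8% of 43417 cases after other windows. Runs of 4 windows or longer numbered 96. The longest run, of 8 windows, lay at chromosome 18, 57926001 to 57934000, in Slc12a2, which encodes a sodium, potassium and chloride cotransporter. It stood at 97.4% in OX40L-JAG1 Teff and 97.1% in PBS Teff, and at 97.2% in OX40L-JAG1 Treg and 96.4% in PBS Treg. Runs of 6 windows lay in Mta3, a subunit of the NuRD chromatin complex, in Atp2b1, a plasma membrane calcium pump, in Prkdc, the catalytic subunit of the DNA-dependent protein kinase, in Srek1, a splicing regulator, and at chromosome 6, 15552001 to 15558000, in no gene. Over these 5, pooled levels of single libraries ran between 95.4% in OX40L-JAG1 Teff, in the run outside genes, and 98.45% in OX40L-JAG1 Treg, in Srek1. A run of 5 windows at chromosome 14, 61627001 to 61632000, lay in the noncoding gene Dleu2 and took in Mir16-1, whose microRNA targets cell cycle and survival genes. It stood at 96.8% in OX40L-JAG1 Teff and 97.7% in PBS Teff, and at 95.5% in OX40L-JAG1 Treg and 97.0% in PBS Treg.

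The coding genes with the most members were long, which also gives more windows to test. Over all coding genes, 29.95% of tested windows were members. Arhgap15, which encodes a GTPase-activating protein for Rac, had 98 of 124 tested windows fully methylated (gene 76117, chromosome 2, 43748798 to 44395953). Exoc4, another exocyst subunit, had 92 of 130 (gene 20336, chromosome 6, 33249090 to 33973979). Lrba, a trafficking protein that in human T cells protects the inhibitory receptor CTLA-4 from degradation, had 82 of 124 (gene 80877, chromosome 3, 86223456 to 86782694). Next came Wwox, an oxidoreductase gene at a fragile site, with 79 of 165, and Zbtb20, a zinc finger repressor, with 72 of 137. Atrnl1 had 65 of 104, Tbc1d5 63 of 91, Cdkal1 57 of 112, Arl15 55 of 93 and Cog5 54 of 73. Cog5 encodes a subunit of a Golgi tethering complex, and Cdkal1 a tRNA-modifying enzyme. These 10 were picked for their members, so their levels are given as description only. Over all tested windows of Arhgap15, 94.6% of reads were methylated in OX40L-JAG1 Teff and 95.6% in PBS Teff, and 95.2% each in OX40L-JAG1 Treg and PBS Treg.

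Some genes were fully methylated in nearly all of their tested windows, which cover only a part of each gene. Cenpc1, which encodes a centromere protein, had 17 members among 17 tested windows (gene 12617, chromosome 5, 86012018 to 86065962). Its windows stood at 96.8% in OX40L-JAG1 Teff and 97.4% in PBS Teff, and at 96.8% in OX40L-JAG1 Treg and 97.4% in PBS Treg. Ctnna1, which encodes alpha-catenin, had 13 of 13 in a gene of 135.9 kb. The others by share were Itfg1, with 19 of 20, and Smarcad1, a chromatin remodeller, with 17 of 18. Mms22l, which protects stalled replication forks, and Ptbp2, a splicing regulator best known in neurons, had 16 of 17 each. Polq, a DNA polymerase of end joining, had 15 of 16. Zzef1 had 14 of 15. Adam10, a protease that sheds surface proteins and cleaves Notch, and Cul5, a scaffold of ubiquitin ligases, had 13 of 14 each. Of 14207 coding genes with a tested window, 61.3% held at least 1 member. Among the 3372 with 10 or more tested windows, the median share of members was 30.8%, 1119 genes had 50% or more, and 197 had none.

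Chromatin and transcription regulators, which most cells express, had 177 members among 343 tested windows, or 51.6%, against 29.95% over all coding genes. The histone methyltransferase genes Kmt2c, Nsd1 and Ehmt1 had 23 of 35, 19 of 30 and 22 of 29, and the corepressor gene Ncor1 24 of 39. Housekeeping genes had 40.3%, with 7 of 18 in Top1, a topoisomerase, 2 of 9 in Sf3b1, a splicing factor, 4 of 8 in Xrn2, an exonuclease of transcription termination, and 4 of 6 in Tbp, the TATA-binding protein. Genes of DNA methylation itself had 41.6%, with 9 of 17 in Dnmt3a, a de novo methyltransferase, 9 of 16 in Tet2 and 7 of 16 in Tet1, which oxidise methylated cytosine, and 3 of 10 in Mbd2, a reader of methylated DNA. The median gene with 3 or more tested windows had 47.6%, 45.0% and 38.5% members in these lists, against 33.3% over all coding genes.

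Neuronal genes lay at the other end. The 30 genes of this list, mostly adhesion and receptor genes of great length, had 279 members among 3930 tested windows, or 7.10%. Ptprd and Lsamp had 21 of 329 and 12 of 298, Lrp1b 20 of 265, and Macrod2 32 of 263. No gene of the list had 40% or more. Olfactory and vomeronasal receptor genes, which are silent in T cells, had 6.39% of 783 windows, and genes named Zfp, which encode zinc finger proteins, 33.6% of 1904. The last 2 families were added after the lists.

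The pan T cell list had 29.4% members among 299 tested windows, close to all coding genes, and its median gene 17.1%. Camk4, a calcium-dependent kinase, had 13 of 36, and Themis, needed in thymocyte selection, 15 of 35. Skap1, an adaptor of the T cell receptor, had 23 of 62, and Runx1, a transcription factor, 9 of 26. Of 18 genes with 3 or more tested windows, 8 had no member. B cell genes had 23.4% of 137 windows, with 8 of 35 in Bank1, a signalling adaptor, and 12 of 18 in Ralgps2. Ebf1 and Pax5, transcription factors of the B lineage, had 10 of 42 and 0 of 16. Myeloid genes had 26.2% of 42 windows, with 7 of 11 in Itgam, an integrin. Adgre1 and Spi1 had 1 of 8 each, and Csf3r 1 of 4. Germline genes had 18.45% of 103, with 5 of 12 in Ddx4, a germ cell helicase. Sycp1 had 1 of 19, Rnf17 1 of 18 and Tdrd9 1 of 10. The lists are small, differ in gene length and were chosen with earlier results known. No test was made of their differences, and expression was not measured.

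**Figure D3:**
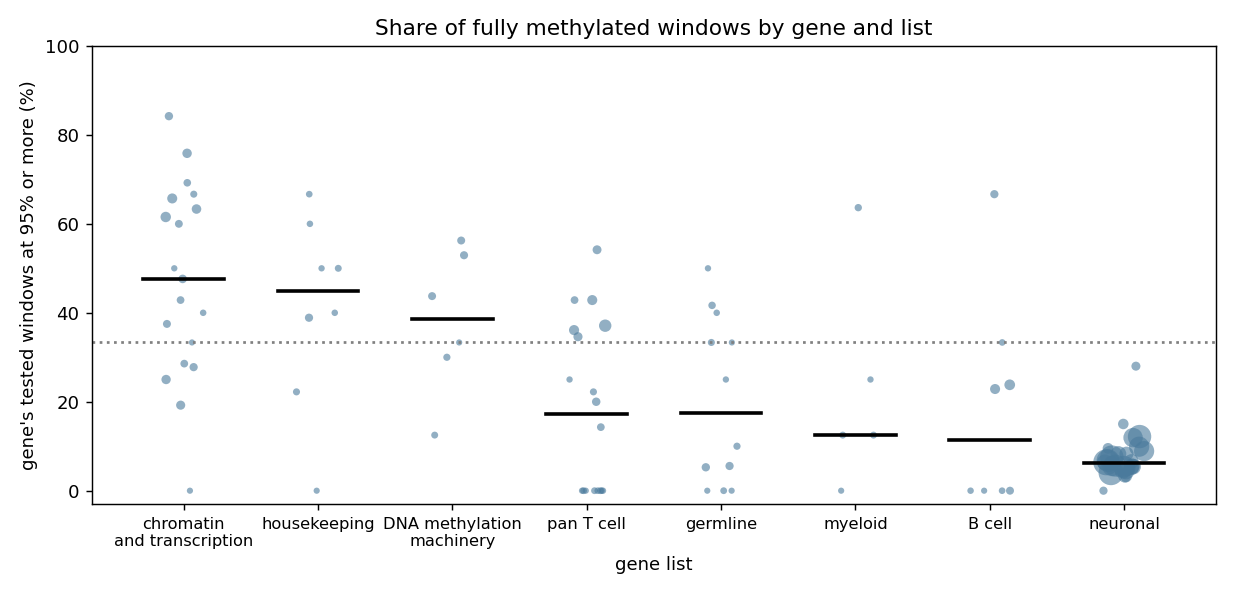
Each point is a gene with 3 or more tested windows, its height the percent of those windows that are fully methylated and its area the number of tested windows; black bars are list medians and the dotted line is the median of all coding genes, 33.3%. The neuronal genes lie between 0% and 28.0%, and chromatin and transcription genes between 0% and 84.2%.

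How well full methylation held after treatment was read in windows chosen without the libraries compared. Windows at 95% or more in the pooled Treg libraries numbered 63332, of which 51304 were members, and served for Teff. Windows at 95% or more in the pooled Teff libraries numbered 61962, of which 52994 were members, and served for Treg. Levels were lower in the OX40L-JAG1 library of both cell types. In the first set the level was 95.2% in OX40L-JAG1 Teff and 96.5% in PBS Teff, a difference of -1.33 points (Newcombe interval -1.34 to -1.31). In the second it was 95.6% in OX40L-JAG1 Treg and 96.5% in PBS Treg, or -0.928 points (-0.949 to -0.908). Among the members themselves, whose choice used these libraries, Teff differed by -1.08 points and Treg by -0.764 points. These values depend on which libraries chose the windows. With OX40L-JAG1 Teff left out of the choice the Teff difference was -1.77 points, and with PBS Teff left out it was -0.549 points. The Treg difference was -1.31 points with OX40L-JAG1 Treg left out and -0.354 points with PBS Treg left out. Over all tested autosomal windows the differences were -2.80 and -2.10 points. Levels in the held-out sets were lower after OX40L-JAG1 on 19 of 19 autosomes, with differences of -1.46 to -1.16 points in Teff; those in Treg ran between -1.12 and -0.736 points.

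Set against the little unmethylated DNA in these windows, the same differences looked larger. Unmethylated reads in the windows chosen on Treg were 4.78% in OX40L-JAG1 Teff and 3.45% in PBS Teff, a ratio of 1.38. In the windows chosen on Teff they were 4.43% in OX40L-JAG1 Treg and 3.50% in PBS Treg, a ratio of 1.27. Over all tested windows these ratios were 1.19 in Teff and 1.14 in Treg. Windows were also grouped by level in the other cell type. The difference was -0.033 points in Teff and 0.452 points in Treg at 0 to 20%, -1.66 and -0.314 points at 20 to 50%, -4.24 and -3.35 points at 50 to 80%, -1.42 and -0.99 points at 95 to 98%, and -0.791 and -0.514 points at 98 to 100%. The ratio of unmethylated shares was highest at 90 to 95%, 1.44 in Teff and 1.33 in Treg, and close to 1 at 0 to 20%. Windows fully methylated in the other cell type differed less in points and more in ratio than all tested windows, with reads pooled. Pooling gives deep windows more weight, and the deepest tested window held 4241065 reads. Weighted equally, windows chosen on Treg had a mean Teff difference of -1.42 points, against -3.21 points over all tested autosomal windows. Windows chosen on Teff had a mean Treg difference of -1.02 points weighted the same way, against -2.49 points over all. The ratio with equal weights was not tested.

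**Figure D4:**
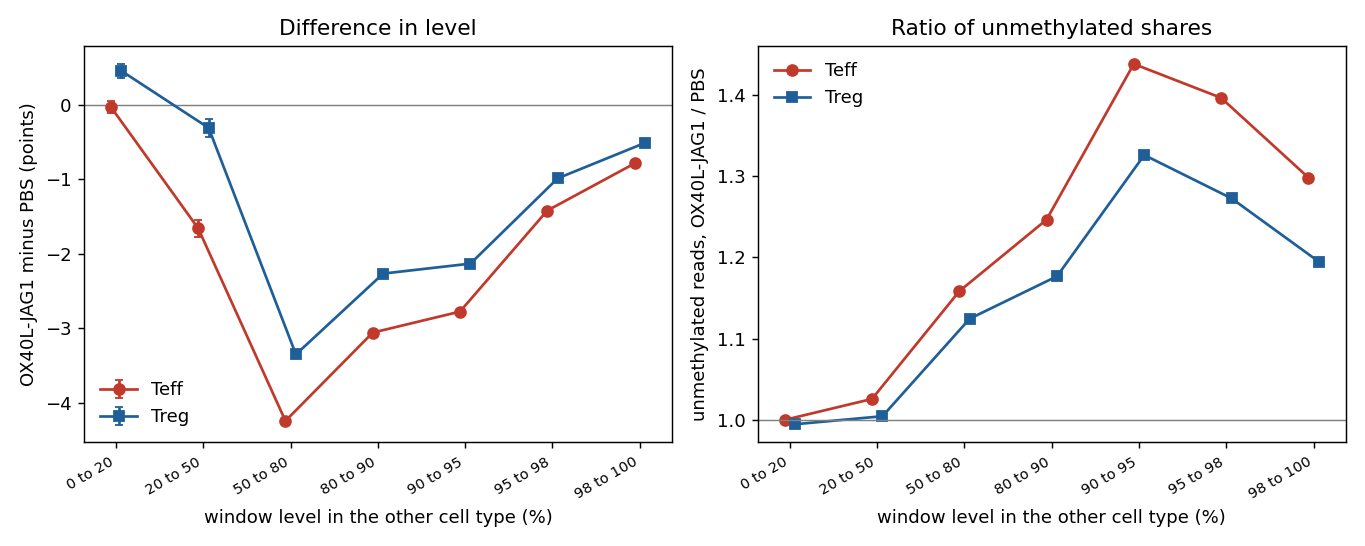
Left, OX40L-JAG1 minus PBS in percentage points for windows grouped by their pooled level in the other cell type, with 95% Newcombe intervals; right, the ratio of unmethylated read shares, OX40L-JAG1 over PBS. In the 2 highest classes the difference is -1.42 and -0.791 points in Teff and -0.99 and -0.514 points in Treg.

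Counted by window, more of the fully methylated windows slipped below the threshold in the OX40L-JAG1 libraries. Of the windows chosen on Treg, 57.8% were at 95% or more in OX40L-JAG1 Teff and 77.7% in PBS Teff. Of those chosen on Teff, 62.3% were in OX40L-JAG1 Treg and 76.0% in PBS Treg. Few fell far. Under 80% lay 155 windows in OX40L-JAG1 Teff and 37 in PBS Teff, and 167 in OX40L-JAG1 Treg and 46 in PBS Treg. The PBS libraries were deeper, and a window had a median of 86 reads in OX40L-JAG1 Teff against 108 in PBS Teff. After each window was thinned to equal reads the shares were 57.8% in OX40L-JAG1 Teff and 76.7% in PBS Teff, and 62.2% in OX40L-JAG1 Treg and 75.01% in PBS Treg. Reads of mitochondrial DNA, which is taken as free of CpG methylation, were called methylated at 0.712% in OX40L-JAG1 Teff and 0.697% in PBS Teff, and at 0.62% in OX40L-JAG1 Treg and 0.635% in PBS Treg, and the part of conversion in the differences was not tested. A single library stands for each group, so a difference between libraries and one between treatments cannot be told apart.

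Fully methylated windows in genes differed less between treatments than those outside. In windows chosen on Treg, the Teff difference was -1.18 points in gene bodies (-1.20 to -1.15) and -1.59 points outside genes (-1.62 to -1.56). In windows chosen on Teff, the Treg difference was -0.819 points in gene bodies and -1.12 points outside. It was also larger where genes were few. With no coding gene within 500 kb Teff differed by -1.64 points and Treg by -1.21 points, and with 25 or more genes by -1.10 and -0.732 points. By CpG number, Teff differed by -1.63 points and Treg by -1.19 points below 6 listed sites, and by -0.754 and -0.436 points at 30 or more. Windows outside genes also stood lower without the proteins, at 96.3% in PBS Teff against 96.7% in gene bodies, and the part of this in the differences was not tested.

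The gene lists were also compared over all of their tested windows, whatever their level. Neuronal genes stood at 81.4% in OX40L-JAG1 Teff and 85.4% in PBS Teff, a difference of -4.02 points (-4.16 to -3.88), while OX40L-JAG1 Treg had 81.85% and PBS Treg 85.3%, or -3.44 points (-3.61 to -3.28). Chromatin and transcription genes stood at 87.1% and 88.1% in OX40L-JAG1 Teff and PBS Teff, a difference of -1.02 points (-1.44 to -0.609), and OX40L-JAG1 Treg differed from PBS Treg by -1.11 points. DNA methylation genes differed by -0.211 points in Teff (-1.17 to 0.743) and by -0.586 points in Treg (-1.63 to 0.453), intervals that include 0. All coding genes differed by -2.52 and -1.91 points. Housekeeping genes, with few windows, differed by -3.02 points in Teff (-4.25 to -1.80) and by -0.0037 points in Treg (-1.40 to 1.39). Pan T cell genes differed by -1.19 points in Teff (-1.79 to -0.584) and by 0.62 points in Treg (-0.0586 to 1.30). B cell genes differed by -2.34 points in Teff (-3.28 to -1.41) and by -2.31 points in Treg (-3.37 to -1.25). Myeloid genes, with 42 windows, differed by -1.49 points in Teff (-2.78 to -0.2) and by -4.31 points in Treg (-5.74 to -2.88). Germline genes, with 103 windows, differed by -4.77 points in Teff (-5.55 to -3.99) and by -2.60 points in Treg (-3.48 to -1.71). In lists this small, single genes can weigh heavily.

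Large falls in single windows were rarely called among fully methylated DNA. Each of 314093 windows, X chromosome included, was tested by the two-sided Fisher's exact test with Benjamini-Hochberg adjustment, and called at an adjusted p under 0.05 and at least 20 points. These tests compare 2 libraries and not conditions. Reads are summed over the positions of a window, so a read that covers several positions counts at each. Such counts are not independent, so intervals of levels and differences are likely too narrow, and the p-values too small. In Teff 0.47% of all windows were called lower in OX40L-JAG1 and 0.0885% higher. Of the 63332 windows chosen on Treg, 14 were called lower, or 0.0221%, and 3 higher, or 0.00474%. In Treg 0.0815% of all windows were called lower and 0.0194% higher. Of the 61962 windows chosen on Teff, 3 were called lower, or 0.00484%, and 0 higher. With reads divided by 3, 0 windows of either set were called. A window near full methylation has no room to rise by 20 points, so nothing is read from the few calls higher. The shares of calls lower lay below those over all windows, and the part of starting level in this was not tested. Among the members, 0 were called in Teff and 1 was called lower in Treg. The choice of members used these libraries, so nothing is read from that.

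Among the 14 windows called lower in Teff, those with the largest differences lay in Dtd1, Shisal1, Themis and Eif2s2 and, outside genes, at chromosome 4, 93557001. Dtd1 encodes a proofreading enzyme of tRNA charging, and its window lies at chromosome 2, 144646001 to 144647000. There, 65.9% of 91 reads were methylated in OX40L-JAG1 Teff and 98.7% of 77 reads in PBS Teff, a difference of -32.8 points (-43.0 to -22.2). Both OX40L-JAG1 Treg and PBS Treg had 100%. The windows were chosen for a high level in Treg, so the high Treg levels here and in the windows below follow from the choice. In Shisal1, at chromosome 15, 84386001, OX40L-JAG1 Teff had 66.2% of 77 reads and PBS Teff 97.9% of 95 reads methylated, against 94.55% in OX40L-JAG1 Treg and 97.1% in PBS Treg. The Themis window, at chromosome 10, 28686001, had 65.2% of 46 reads methylated in OX40L-JAG1 Teff, against 96.1% of 51 reads in PBS Teff. Eif2s2, which encodes a translation initiation factor subunit, had 69.7% of 33 reads in OX40L-JAG1 Teff and 96.5% of 57 reads in PBS Teff. Among the other windows called lower was one in Tbx21, which encodes T-bet, the regulator of T helper 1 cells, singled out after its values were seen. Its level was 72.7% of 55 reads in OX40L-JAG1 Teff and 96.4% of 110 reads in PBS Teff (chromosome 11, 97104001 to 97105000; Fisher's exact test, adjusted p = 0.00303), against 94.6% in OX40L-JAG1 Treg and 97.0% in PBS Treg.

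The 3 windows called higher in OX40L-JAG1 Teff, named after their values were seen, come from the windows chosen for full methylation in Treg. A call of at least 20 points higher also required a reduced level in PBS Teff. Lef1 encodes a transcription factor of naive T cells, and in its window (chromosome 3, 131122001 to 131123000) OX40L-JAG1 Teff had 90.4% of 104 reads and PBS Teff 64.6% of 96 reads methylated, beside 96.5% in OX40L-JAG1 Treg and 97.8% in PBS Treg (Fisher's exact test in Teff, adjusted p = 0.00227). Tenm2 stood at 94.4% in OX40L-JAG1 Teff and 72.55% in PBS Teff, and Fbxw7, which encodes a ubiquitin ligase subunit, at 95.2% in OX40L-JAG1 Teff and 75.2% in PBS Teff. Tenm2 had 94.6% in OX40L-JAG1 Treg and 97.4% in PBS Treg, and Fbxw7 98.2% in OX40L-JAG1 Treg and 92.2% in PBS Treg. PBS Teff was the lowest library in each, which follows from the choice of the windows and the size of a call.

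In Treg the calls, among windows chosen for a high level in Teff, lay in Srek1, in Inpp5f and, outside genes, at chromosome 18, 63585001. In the Srek1 window, at chromosome 13, 103741001, OX40L-JAG1 Treg had 78.8% of 66 reads and PBS Treg 100% of 89 reads methylated, beside 92.4% in OX40L-JAG1 Teff and 97.3% in PBS Teff. The window of Inpp5f, a phosphoinositide phosphatase gene with an imprinted transcript, lies at chromosome 7, 128683001 to 128684000. It was a member by its pooled level and differed by -20.0 points (-34.8 to -9.56) over 40 reads in OX40L-JAG1 Treg and 85 reads in PBS Treg, where all were methylated (Fisher's exact test, adjusted p = 0.0305). OX40L-JAG1 Teff had 95.35% and PBS Teff 100%. The largest fall among members in Treg lay outside genes at chromosome 5, 75062001, with 78.6% of 28 reads in OX40L-JAG1 Treg and 100% of 34 reads in PBS Treg, and was not called (Fisher's exact test, adjusted p = 0.254). Among members the largest fall in Teff was in Stk33, a serine and threonine kinase gene, at 79.3% of 29 reads in OX40L-JAG1 Teff and 100% of 44 reads in PBS Teff, which was not called either (Fisher's exact test, adjusted p = 0.0706).

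Some members rested on far more reads than most. The 5 deepest held 15508 to 24413 reads, against a median of 343. The deepest lay in Zc3h13, a subunit of the RNA methylation machinery, at chromosome 14, 75327001, with 6635 reads at 97.95% in OX40L-JAG1 Teff, 7776 at 97.8% in PBS Teff, 5387 at 98.1% in OX40L-JAG1 Treg and 4615 at 97.9% in PBS Treg. Why these windows were deep was not tested. Windows at 100% in all libraries with the most positions, 8 each, lay in Lmtk2, a kinase gene, from 438 reads, and in Auh, a mitochondrial enzyme gene, from 385 reads.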

How the data were processed

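Methylation was measured in 4 libraries, 1 per group. The authors used Trimmomatic and Bismark with build mm10, per the submitters' processing notes. Their versions and any duplicate removal are not given in the sources used here. In the deposited table are, per the file headers, counts of reads and counts of methylated reads at 25374149 CpG positions, strands on separate lines, and a deposited level that runs as a fraction from 0 to 1. No nonzero count of reads lies under 5. Listed reads were 159291553 in OX40L-JAG1 Teff, 103584075 in OX40L-JAG1 Treg, 208402911 in PBS Teff and 131555634 in PBS Treg, which is not the sequencing depth. A read counts at every position it covers. From these counts, windows, Wilson and Newcombe 95% intervals and Fisher tests were computed with Python 3.11.15, numpy 2.4.6, scipy 1.17.1 and pandas 2.3.3. Listed neighbouring rows were joined into CpG sites. Genes and promoters came from RefSeq tables of GRCm38.p6; a window was put in each gene whose body it overlapped. Gene density counts coding genes within 500 kb of the window's centre. Reads were simulated for the Teff comparison at real depths over 20000 windows. Of windows lowered by 30 points 44 of 50 were called, and of those lowered by 20 points, the minimum size of a call, 21 of 50. Of unchanged windows, 0 of 19800 were called. The simulated counts were independent draws from the same starting level in every window. They were adjusted over 20000 windows, and the reported tests over 314093. Real counts share reads, so the simulation does not give the error rates of the reported tests.

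The members, lists and tests were chosen with earlier results of these data known. Genes were named by a rule: the 10 with most members, the 10 with the highest share among 10 or more tested windows, the longest runs, the deepest members, those at 100% with most positions, the largest falls, starts within members, and the list genes with most tested windows. Predicted gene models were not named, and the text says where an item was picked outside the rule.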

Additional observations from a re-analysis of the deposited data

How the results depend on the processing

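The threshold sets the size of the set and its location and response with it. At 90% there were 142524 windows, of which 56.96% overlapped a gene, with differences of -2.09 points in Teff and -1.55 points in Treg. At 98% there were 7761 windows, 79.98% in genes, with differences of -0.318 and -0.245 points. A minimum of 10 reads left 15783 members of 68435 tested windows (23.1%), 63.85% in genes, with a Teff difference of -1.05 points. A minimum of 10 positions left 7428 of 31194 (23.8%), 67.0% in genes, with differences of -0.995 and -0.672 points. Requiring every library at 95% left 23548 windows, 74.55% in genes. With 5 kb on either side of genes 76.19% of members were at a gene, and with coding genes alone 61.39%. Leaving each library out of the pool in turn gave 54442 to 68408 windows, with 66.22% to 69.37% in genes. Over these choices, read after seeing the data, the Teff difference lay between -1.771 and -0.549 points and the Treg difference between -1.314 and -0.3541 points, each furthest out when one of the 2 libraries compared had left the choice. Windows chosen on the other cell type had a Teff difference of -1.325 and a Treg difference of -0.9284 points. Thinning to equal reads gave 76.71% in PBS Teff and 75.01% in PBS Treg for the share at 95% or more. With reads divided by 3, calls in the held-out windows were 0 lower and 0 higher in Teff and 0 lower in Treg. With a 10-point minimum they were 153 lower in Teff and 16 lower in Treg. With differences centred on their median, 1 window was called lower in Treg. The other 21 alternative values stayed within their interval or 1.5 times the count, and no difference changed sign. No paired analysis was possible because each group has 1 library, the labels number none, and nothing in them says which Teff and Treg libraries share animals.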
